A study of Equus caballus with 8 samples.

Results

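Aquaporins are membrane channels of the MIP family, and the 8 listed here were AQP1, AQP2, AQP3, AQP4, AQP5, AQP8, AQP9 and AQP11. They were chosen by gene symbol, which was matched to the NCBI Gene IDs of the deposited table of read counts. Of the 8 symbols, 7 matched a row among the 24942 Gene IDs, and AQP5 matched no row under its current Gene ID and was not analysed here as a gene of its own. The RNA came from transcervical endometrial biopsies of 4 normally cycling Bavarian Warmblood mares, and each mare was sampled on Day 12 of pregnancy (called pregnant here) and on Day 12 of the oestrous cycle (labelled control, called cyclic here). The 8 libraries thus form 4 pairs. All mares received 1500 IU of human chorionic gonadotropin to induce ovulation, and the labels' protocols describe artificial insemination of all mares with semen of a single stallion, without saying whether this held for the cyclic samples. The uterus was flushed before each biopsy, and in pregnancy an embryonic vesicle had been seen by ultrasound before the flush.

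Each aquaporin forms a pore through which water, and for some members glycerol, urea or other small solutes, crosses a membrane along its gradient. AQP1, AQP2, AQP4, AQP5 and AQP8 are mainly water channels, AQP3, AQP7, AQP9 and AQP10 are aquaglyceroporins that also pass glycerol, and AQP11 and AQP12 form a distant branch found mostly on membranes inside the cell. In the uterus these channels are known from blood vessels, luminal and glandular epithelium and muscle, and several of them are known to respond to oestrogen and progesterone. A biopsy holds all of these tissues, so its RNA cannot tell a change in the number of cells of a type from a change in RNA per cell.

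Total counts ran from 15.5 to 16.7 M in 7 libraries and were 9.81 M in the pregnant library of mare 1. Values are given in CPM, which is the read count scaled to the depth of its library, here with the TMM factors of edgeR. In this unit 3 counts, the most that a count of 0 allows, correspond to 0.169 to 0.298 CPM, a limit that covers counting error only. Of the endothelial, epithelial, stromal and smooth muscle markers listed for this work, all 12, 9, 9 and 7 that matched a row passed the filter on low counts. Transcripts of these tissues were thus detected. The listed markers KRT8, KRT19 and COL3A1 matched no row. Over all genes tested, 1309 were higher and 1256 lower in pregnancy, or 1416 higher and 864 lower when libraries were scaled by their totals alone.

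One identity needs care before the values. The row called AQP2 below is Gene ID 100059758, whose current symbol is AQP2 and whose older symbol in the RefSeq gene table is aqp5. In that table (the telomere-to-telomere thoroughbred assembly TB-T2T) AQP2, AQP5 and AQP6 lie next to each other, with a single placeholder gene between AQP2 and AQP5. The annotation used for counting is not given in the sources used here, so whether the reads of this row came from AQP2, from AQP5 or from both cannot be told apart. AQP2 is the vasopressin-regulated channel of the kidney collecting duct, and AQP5 is the apical channel of secretory glands. No sequence of any member was given with the files, so none is printed.

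Among the aquaporin genes with a row, which AQP5 lacks, reads came almost entirely from AQP1 and the AQP2 row. These rows changed in opposite directions. Together they held 94.2% to 98.2% of the reads of the 12 aquaporin family genes in the table. AQP1 was 2.36-fold higher in pregnancy and the AQP2 row 1.84-fold lower. Each moved in the same direction in 4 of 4 mares, as did 38.8% of all genes tested. Of the 6 members that passed the filter, these 2 changed (edgeR's quasi-likelihood test with the mare as a block, Benjamini-Hochberg adjusted p below 0.05 over 15342 genes), where 16.7% of all genes changed. One was higher, as were 8.53% of all genes, and one was lower, as were 8.19%. With so few members, these counts say nothing about the family as a group.

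AQP1 (Gene ID 100069916) is the constitutively open water channel of capillary endothelium and red blood cells. In the cycle it had 106, 101, 137 and 56.0 CPM in mares 1 to 4, on 1652, 1604, 2207 and 903 counts. In pregnancy it had 422, 214, 255 and 111 CPM in the same mares, on 4245, 3313, 4534 and 1879 counts. The groups overlapped, because the cyclic library of mare 3 lay above the pregnant library of mare 4, but within every mare the pregnant library was the higher. Mare 4 was the lowest in both states, and the pregnant library of mare 1, the shallowest, was the highest of all 8. The means were 100.03 ± 33.4 CPM (SD, n = 4) in the cycle and 250.5 ± 129 CPM (SD, n = 4) in pregnancy, and the log2 fold change was 1.24 ± 0.20 (SE; adjusted p = 0.0133 by edgeR's quasi-likelihood test, 2.03e-07 to 0.135 over 13 alternatives). The rise of AQP1 was the 196th largest among the 15342 genes tested, and 1.75% of genes rose at least 2-fold and passed the test. The call was lost without the mare as a replicate block (adjusted p = 0.135) and without mare 2 (adjusted p = 0.0700). Without mare 1 the log2 fold change of AQP1 was 0.99 and it passed (adjusted p = 0.00209).

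The AQP2 row fell in pregnancy. In the cycle it had 132, 246, 138 and 165 CPM in mares 1 to 4, on 2056, 3919, 2217 and 2663 counts. In pregnancy it had 77.5, 81.7, 87.7 and 115 CPM, on 779, 1267, 1560 and 1939 counts. The groups did not overlap, the highest pregnant library (mare 4) lying below the lowest cyclic library (mare 1). Among all genes tested 4.73% were lower in this way, and no other member separated the groups. Cyclic values spread more than pregnant ones, at 170 ± 52.6 CPM and 90.4 ± 16.8 CPM (SD, n = 4 each), and mare 2 went from the highest cyclic library to the second lowest pregnant one. The log2 fold change was -0.88 ± 0.19 (SE; adjusted p = 0.0326 by edgeR's quasi-likelihood test, 1.36e-06 to 0.110 over 13 alternatives). The call was lost in 6 of the 13, namely without the mare as a replicate block (adjusted p = 0.0552), with library totals (0.0520), without the low-count filter (0.0653) and without mare 1 (0.110), mare 3 (0.0766) or mare 4 (0.0508). Without mare 2 it passed (adjusted p = 0.00280) with a smaller log2 fold change of -0.66.

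**Figure D1:**
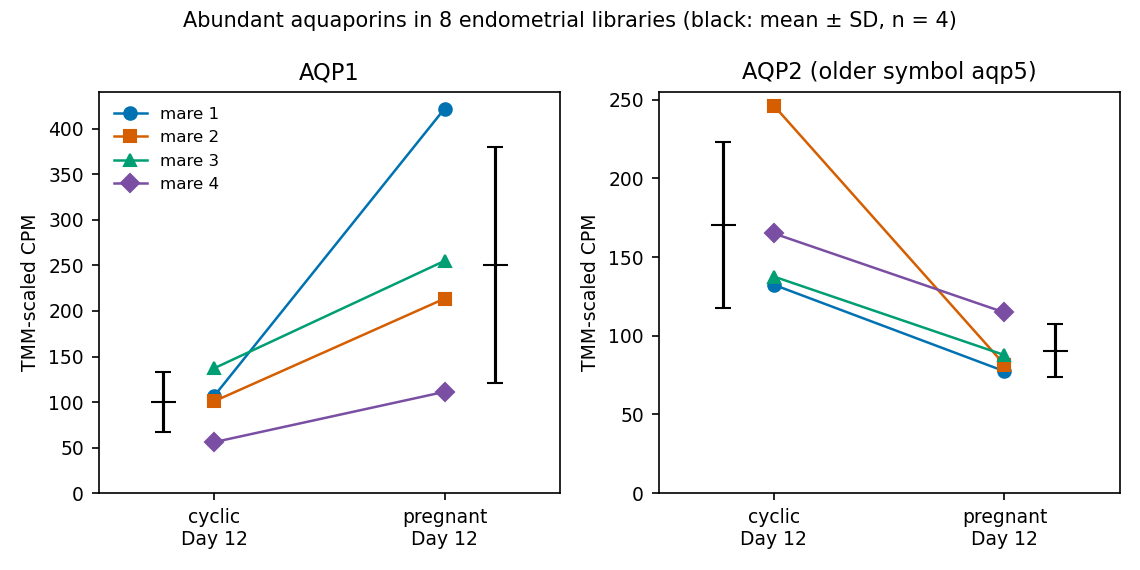
TMM-scaled CPM of AQP1 (left) and the AQP2 row (right) in the cyclic and pregnant libraries; lines join the libraries of a mare, and black bars give the mean ± SD of 4 mares. AQP1 was higher in pregnancy in 4 of 4 mares with overlapping groups, and the AQP2 row was lower in 4 of 4 with no overlap.

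With these opposite changes AQP1 took a larger share of the aquaporin reads in pregnancy. AQP1 gave 44.6%, 29.0%, 49.9% and 25.3% of the reads of the AQP1 and AQP2 rows together in the cyclic libraries of mares 1 to 4. In the pregnant libraries it gave 84.5%, 72.3%, 74.4% and 49.2%. The share was thus higher in pregnancy in every mare, and AQP1 supplied the larger part of the pregnant reads in mares 1, 2 and 3 but not in mare 4. The cyclic library of mare 3 lay just above the pregnant library of mare 4. These are shares of reads, and since a longer transcript yields more reads and no transcript length was used, they do not rank the channels by number of molecules. The summed level of the 12 family genes was 279 ± 56.5 CPM in cyclic and 353 ± 114 CPM in pregnant libraries (SD, n = 4 each).

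Markers of endothelium moved with AQP1. Of 12 tested, 10 rose and 0 fell, where 8.53% of all genes rose, with a median log2 fold change of 0.88 against 0.00 over all genes. This list, like the other lists here, was chosen with earlier results of these data known, so its counts are a description. CLDN5, an endothelial tight junction protein, rose from 6.11 ± 1.61 to 18.4 ± 4.94 CPM, and CDH5, the endothelial cadherin, rose 1.83-fold. ECSCR rose 2.24-fold and PECAM1, an endothelial adhesion molecule, 1.84-fold. The summed level of the 12 markers ran from 680 to 1350 CPM in cyclic and from 1032 to 1547 CPM in pregnant libraries. ROBO4, an endothelial receptor that did not pass the test (log2 fold change 0.11 ± 0.09, SE), had 786 and 717 CPM in the cyclic and pregnant libraries of mare 4, and 176 to 287 CPM in the other 6. The sums of all 12 markers thus overlapped between the groups. Leaving out ROBO4, decided after seeing the values, gave sums of 424 to 589 CPM in cyclic and 753 to 1260 CPM in pregnant libraries.

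AQP1 did not follow these markers alike in each mare. Its log2 ratio of pregnant to cyclic level was 1.99, 1.08, 0.90 and 0.99 in mares 1 to 4, where the median of the endothelial markers was 1.13, 0.68, 0.92 and 0.64. Expressed as a percentage of the summed endothelial markers, AQP1 was 13.1, 14.8, 18.6 and 4.14 in the cycle and 27.3, 20.7, 20.6 and 7.42 in pregnancy, higher in 4 of 4 mares with ROBO4 included. Against the other 11 markers the percentage was 18.1, 23.8, 24.5 and 9.92 in the cycle and 33.5, 28.4, 24.4 and 14.2 in pregnancy, higher in 3 of 4 mares and nearly equal in mare 3. Exact sign-flip permutation tests over 4 pairs gave a two-sided p = 0.125 with ROBO4, the smallest they allow, and p = 0.25 without it, a setting chosen after seeing the data. The part of endothelial RNA in the rise of AQP1 was not tested beyond these values.

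Red blood cells are the other classical site of AQP1, and the listed genes of these cells that matched a row had almost no reads, apart from GYPC. The alpha globin symbols HBA, HBA1 and HBA2 matched no row, so their reads are not known. The erythroid genes ALAS2 and SLC4A1 were at 0 counts in all 8 libraries, and HBB, the beta globin gene, had at most 2 counts. Of this list's 6 genes in the table only GYPC passed the filter, and it rose 1.74-fold. GYPC, a membrane glycophorin, is known from many other cells as well. The summed level of the list was 4.52 to 5.60 CPM in cyclic and 7.52 to 9.60 CPM in pregnant libraries, nearly all of it from GYPC. Of the smooth muscle and stromal markers, 3 of 7 and 5 of 9 tested rose and 0 fell in either list, where 8.53% of all genes rose and 8.19% fell. Their median log2 fold changes were 1.56 for smooth muscle and 0.38 for stroma, where that of the endothelial markers was 0.88. CNN1, a smooth muscle calponin, rose from 2.26 ± 1.58 to 10.2 ± 3.11 CPM, and LMOD1 and DES rose 1.77-fold and 1.68-fold. Summed smooth muscle markers ran from 145 to 310 CPM in cyclic and from 296 to 522 CPM in pregnant libraries. DPT, a matrix protein of fibroblasts, rose from 178 ± 38.7 to 366 ± 38.1 CPM, with PDGFRB, VIM and DCN up 1.62-fold, 1.47-fold and 1.36-fold. The calls of DES, PDGFRB and DCN were lost in 2, 1 and 1 of 13 alternatives. The most abundant stromal genes, the collagens COL1A1 and COL1A2, had log2 fold changes of -0.15 and -0.17 and did not pass (adjusted p = 0.658 and 0.486), each lower in 2 of 4 mares. Summed stromal markers overlapped, at 3273 to 4840 CPM in cyclic and 4078 to 4643 CPM in pregnant libraries. The part of these tissues in the aquaporin values was not tested.

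AQP2 and AQP5 are chiefly known from epithelium. Of the epithelial markers, 0 of 9 tested rose and 3 fell, against 8.19% of all genes that fell, with a median log2 fold change of -0.14. The keratins KRT7 (log2 fold change -0.59 ± 0.10, SE) and KRT18 (-0.31 ± 0.08) and the splicing regulator ESRP2 (-0.26 ± 0.07) fell, with the call lost in 1, 6 and 5 of 13 alternatives, for KRT18 and ESRP2 also with library totals. The claudin CLDN4 (0.57 ± 0.24), the cadherin CDH1 (0.18 ± 0.09) and EPCAM (-0.09 ± 0.09) did not pass. The summed level of the 9 markers was 1834 to 2243 CPM in cyclic and 1651 to 1846 CPM in pregnant libraries, so the groups overlapped. The log2 ratio of the AQP2 row was -0.77, -1.59, -0.65 and -0.52 in mares 1 to 4, below the marker median of -0.14, -0.29, -0.12 and -0.00 in each. As a percentage of the summed epithelial markers the AQP2 row was 7.19, 10.98, 7.44 and 8.999 in the cycle and 4.61, 4.42, 5.31 and 6.24 in pregnancy. It was lower in 4 of 4 mares and the groups did not overlap (exact sign-flip permutation test over 4 pairs, two-sided p = 0.125, the smallest it allows). Because the AQP2 row is the numerator, this percentage partly repeats the fall of the row itself. The part of epithelial RNA in that fall was not tested beyond these values.

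**Figure D2:**
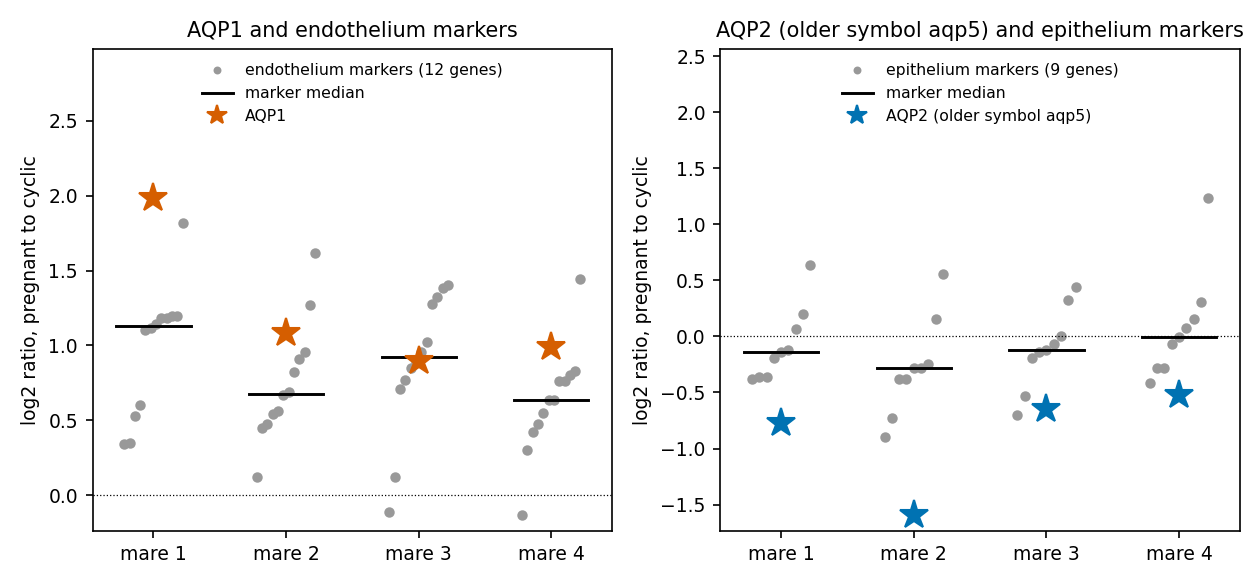
Log2 ratio of pregnant to cyclic level (CPM plus 0.1) in each mare for AQP1 with 12 endothelial markers (left) and for the AQP2 row with 9 epithelial markers (right); stars are the aquaporin, dots single markers and bars the marker median. AQP1 lay above the marker median in mares 1, 2 and 4 and just below it in mare 3, and the AQP2 row lay below the median in each mare.

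Genes with the most similar pattern were sought by the root mean square difference of log2 CPM over the 8 libraries, each gene centred on its own mean, among 10755 other genes with a symbol and at least 5 CPM. Closest to AQP1 were CRACDL at 0.21, GPR153, an orphan receptor, at 0.30, and RARRES2, the secreted chemoattractant chemerin, at 0.30, where the median gene was at 0.88. CRACDL had 6.32 ± 1.89 CPM in cyclic and 14.9 ± 6.79 CPM in pregnant libraries, and RARRES2 had 26.1 ± 6.63 and 55.2 ± 13.4 CPM. Closest to the AQP2 row were ST3GAL1, a sialyltransferase, at 0.16, NQO1, a quinone reductase, at 0.16, and SLC41A2, a magnesium transporter, at 0.20, where the median gene was at 0.55. ST3GAL1 had 659 ± 118 CPM in cyclic and 371 ± 30.1 CPM in pregnant libraries, and NQO1 had 43.1 ± 16.8 and 23.5 ± 4.10 CPM. The likeness is a description of these 8 libraries and carries no test.

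The remaining members were near the lower end of what these libraries measure, each with a mean below 5 CPM. AQP3 (Gene ID 100053851), an aquaglyceroporin of epithelia, had 40, 24, 35 and 25 counts in the cyclic libraries of mares 1 to 4 and 20, 52, 71 and 66 in the pregnant ones. In CPM these were 2.58, 1.51, 2.17 and 1.55 against 1.99, 3.35, 3.99 and 3.91. AQP3 was higher in pregnancy in mares 2, 3 and 4 and lower in mare 1, and the groups overlapped through mare 1 alone. Its log2 fold change was 0.78 ± 0.28 (SE; adjusted p = 0.0908 by edgeR's quasi-likelihood test, 0.0294 to 0.267 over 13 alternatives). Leaving out mare 1 gave AQP3 a log2 fold change of 1.11, which passed the test (adjusted p = 0.0294).

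AQP4 (Gene ID 100051905), the water channel best known from astrocytes, had 1.29, 1.95, 0.186 and 0.558 CPM in cyclic and 1.69, 1.61, 1.18 and 2.37 CPM in pregnant libraries. These rest on 20, 31, 3 and 9 counts and on 17, 25, 21 and 40 counts. The spread lay mostly in the cyclic libraries, where mares 3 and 4 were low, and the groups overlapped. AQP4 was higher in 3 of 4 mares, and its log2 fold change was 0.93 ± 0.45 (SE; adjusted p = 0.206 by edgeR's quasi-likelihood test, 95% interval -0.11 to 1.96), so neither no change nor a rise like that of AQP1 lay outside its interval. In the RefSeq table its locus and that of AQP9 each overlap a placeholder gene, and since the libraries do not mark strand, reads of overlapping genes cannot be told apart.

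AQP11 (Gene ID 100063181), an aquaporin of the endoplasmic reticulum, had 13, 22, 13 and 20 counts in the cycle and 8, 13, 9 and 18 in pregnancy. Its level was 1.07 ± 0.288 CPM in cyclic and 0.801 ± 0.230 CPM in pregnant libraries (SD, n = 4 each). It was lower in 4 of 4 mares, a pattern of one direction that 38.8% of all genes showed, and the groups overlapped. The log2 fold change of AQP11 was -0.42 ± 0.29 (SE; adjusted p = 0.357 by edgeR's quasi-likelihood test, 95% interval -1.07 to 0.22). AQP8 (Gene ID 100061706), a channel of secretory epithelia, was not detected above the limit of a count of 0, with 0, 0, 2 and 1 counts in the cyclic libraries and 0, 1, 0 and 0 in the pregnant ones, and it was not tested.

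**Figure D3:**
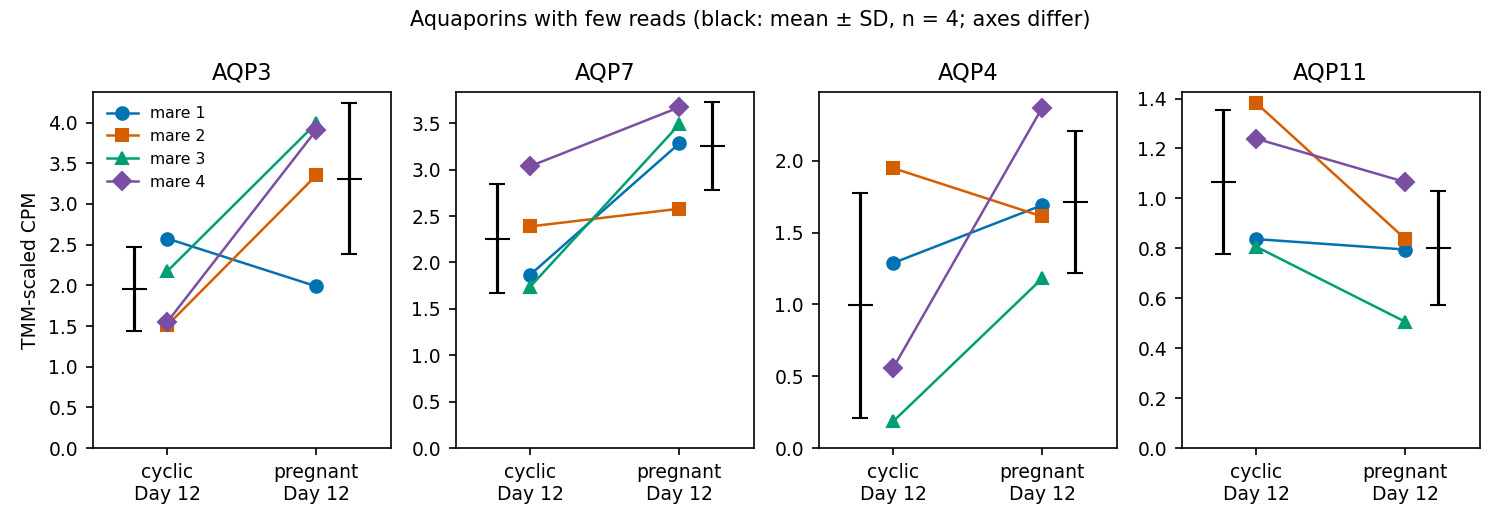
TMM-scaled CPM of AQP3, AQP7, AQP4 and AQP11 in the cyclic and pregnant libraries; lines join the libraries of a mare, black bars give the mean ± SD of 4 mares, and the vertical axes differ. AQP3 was higher in pregnancy in mares 2, 3 and 4, AQP7 was higher and AQP11 lower in 4 of 4 mares, and none of the 4 genes passed the test.

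AQP9 (Gene ID 100054508), an aquaglyceroporin known from liver and white blood cells, varied with the animal more than with the state. In the cycle it had 0.773, 1.19, 2.05 and 0.744 CPM in mares 1 to 4, on 12, 19, 33 and 12 counts. In pregnancy it had 3.21 CPM in mare 3 and 0.696 to 1.16 CPM in the other 3, on 7, 18, 57 and 14 counts in mares 1 to 4. Mare 3 was the highest in both states, and the other 3 mares stayed below 1.2 CPM. The mare terms passed the test for AQP9 (adjusted p = 0.0212 by edgeR's quasi-likelihood test), the only member of the 6 tested for which they did, where 15.9% of all genes passed. They did not pass without mare 3 (adjusted p = 0.415) or without mare 1 (0.0528). For the state the log2 fold change was 0.24 ± 0.27 (SE; adjusted p = 0.598), or -0.01 without mare 3.

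The granulocyte receptors CSF3R and CXCR2 were high in the same animal. CSF3R, the receptor of granulocyte colony-stimulating factor, had 7.20 and 8.72 CPM in the cyclic and pregnant libraries of mare 3, and 0.709 to 2.85 CPM in the other 6 libraries. CXCR2, a neutrophil chemokine receptor, had 3.97 and 4.84 CPM in mare 3, and 1.30 to 2.78 CPM in the others. These 2 genes were singled out after their values were seen. Of the 8 neutrophil and myeloid markers in the table, 4 passed the filter and 1 rose in pregnancy, CD14, a co-receptor of monocytes, 1.47-fold. ITGAM, which also passed the filter, had 9.93 and 8.49 CPM in the cyclic and pregnant libraries of mare 3. In those of mare 4 it had 8.55 and 7.46 CPM, nearly as much. In pregnancy CD14 was highest in mare 2, at 50.1 CPM against 45.0 CPM in mare 3. The neutrophil genes MPO and S100A8 had at most 1 count in a library and S100A9 at most 2. S100A12 had 0, 4, 3 and 6 counts in the cyclic libraries of mares 1 to 4 and 0, 1, 12 and 3 in the pregnant ones. None of these neutrophil genes passed the filter. The summed level of the list was 35.8 to 53.4 CPM in cyclic and 47.8 to 67.9 CPM in pregnant libraries. The part of white blood cells in the AQP9 values was not tested.

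**Figure D4:**
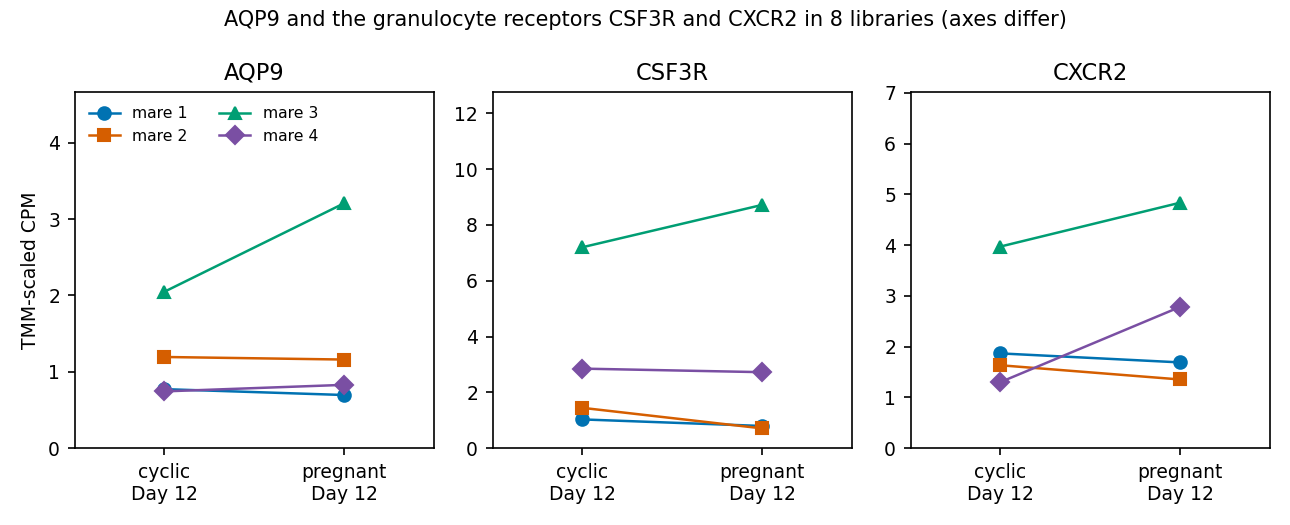
TMM-scaled CPM of AQP9 and of the granulocyte receptors CSF3R and CXCR2 in the cyclic and pregnant libraries; lines join the libraries of a mare, and the vertical axes differ. In each of the 3 genes the libraries of mare 3 were the highest of their group.

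Of the wider aquaporin family, 5 further genes had a row and 3 passed the filter, of which 0 changed by edgeR's quasi-likelihood test (1 at an unadjusted p below 0.05) and 0 by DESeq2 or limma-voom. AQP7, the glycerol channel of fat cells, had 1.87, 2.39, 1.74 and 3.04 CPM in cyclic and 3.28, 2.58, 3.49 and 3.67 CPM in pregnant libraries. It was higher in 4 of 4 mares with overlapping groups, and its log2 fold change was 0.53 ± 0.22 (SE; adjusted p = 0.130 by edgeR's quasi-likelihood test). In the RefSeq table AQP7 and AQP3 are neighbours, with a placeholder gene overlapping AQP7. AQP6, an intracellular channel of the kidney that lies beside AQP5, had 0.909 ± 0.365 CPM in cyclic and 0.958 ± 0.680 CPM in pregnant libraries (SD, n = 4 each), lower in mares 1 and 2 and higher in mares 3 and 4 (adjusted p = 0.960). AQP10 had 2 to 11 counts in the cyclic and 6 to 14 in the pregnant libraries (adjusted p = 0.523). AQP12 had at most 1 count in a library, and MIP, the lens channel, was at 0 counts in all 8.

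**Figure D5:**
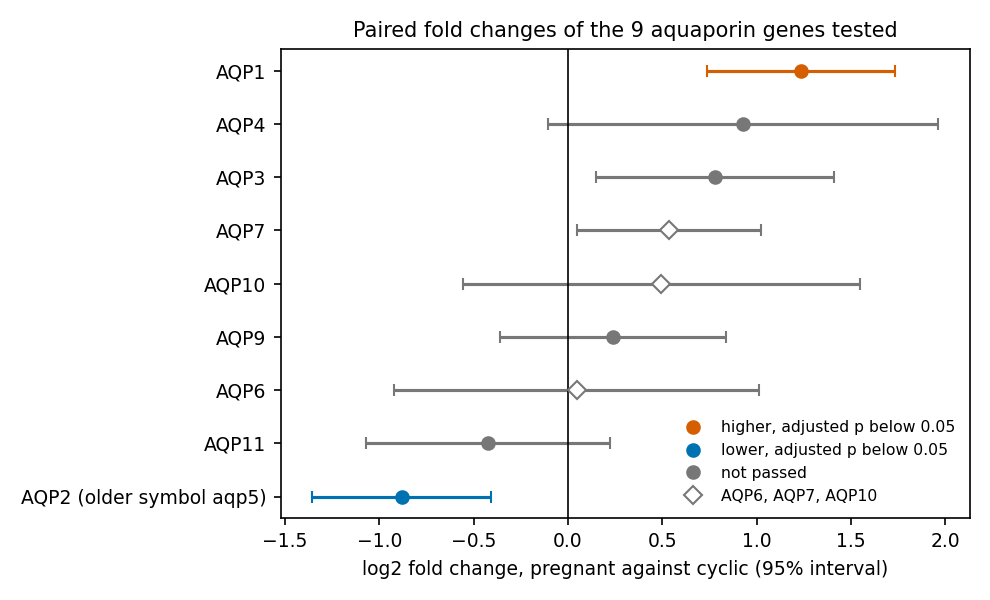
Log2 fold change, pregnant against cyclic, of the 9 aquaporin genes that passed the filter, with unadjusted 95% intervals from the paired fit; filled circles are listed members, open diamonds the other family genes, and colour marks an adjusted p below 0.05. AQP1 was higher and the AQP2 row lower, and the intervals of AQP4, AQP10, AQP9, AQP6 and AQP11 include 0.

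Genes that regulate or anchor aquaporins mostly did not pass the test. Of 20 tested, 1 rose and 1 fell, against 8.53% and 8.19% of all genes, with a median log2 fold change of 0.03. These were 2 adenylyl cyclases, enzymes that make the cyclic AMP through which vasopressin acts on AQP2. ADCY6 fell from 460 ± 56.9 to 333 ± 52.4 CPM (adjusted p = 0.0197 by edgeR's quasi-likelihood test), and ADCY3 rose from 22.4 ± 2.00 to 29.6 ± 5.10 CPM (adjusted p = 0.0180). The call of ADCY6 was lost in 5 of 13 alternatives and that of ADCY3 in 3. The vasopressin receptor gene AVPR2 had at most 1 count in a library and did not pass the low-count filter.

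Aquaglyceroporins carry glycerol besides water. Of 9 genes of glycerol handling tested, 1 rose and 3 fell, where 8.53% and 8.19% of all genes did, with a median log2 fold change of 0.01. GK5, of the glycerol kinase family, fell from 26.8 ± 3.38 to 14.8 ± 2.28 CPM (adjusted p = 0.00179 by edgeR's quasi-likelihood test). The glycerol-3-phosphate dehydrogenase family genes GPD1L (log2 fold change -0.44 ± 0.09, SE) and GPD2 (-0.27 ± 0.07) fell, with the call lost in 1 and 7 of 13 alternatives. MGLL, which frees glycerol from monoglycerides, rose from 16.8 ± 6.12 to 30.8 ± 4.65 CPM, a call lost in 4 of 13.

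Ion transport sets the osmotic gradient that water follows. Of 12 epithelial fluid transport genes tested, 3 rose and 2 fell, against 8.53% and 8.19% of all genes, with a median log2 fold change of 0.27. SLC12A2, the sodium, potassium and chloride cotransporter of secretory epithelium, fell from 1170 ± 397 to 663 ± 164 CPM (adjusted p = 0.00100 by edgeR's quasi-likelihood test). ANO1, a calcium-activated chloride channel, rose from 9.10 ± 2.15 to 17.1 ± 4.23 CPM, and SCNN1G, a subunit of the epithelial sodium channel, from 23.9 ± 18.7 to 40.6 ± 28.3 CPM. The calls of SLC12A2, ANO1 and SCNN1G were each lost only without the mare as a block (adjusted p = 0.105, 0.0622 and 0.613 by the quasi-likelihood test). Of the sodium pump beta subunits, ATP1B3 rose 1.29-fold (call lost in 4 of 13 alternatives) and ATP1B1 fell by 0.33 on the log2 scale (lost in 8 of 13). CFTR, the chloride channel, had 16.9 ± 5.79 and 10.9 ± 8.12 CPM (adjusted p = 0.216).

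Cells answer a change in osmotic pressure by adjusting their volume and solutes. Of 16 genes of this response tested, 3 rose and 2 fell, where 8.53% and 8.19% of all genes did, with a median log2 fold change of -0.08. NFAT5, the transcription factor of the response to high tonicity, fell from 46.7 ± 23.5 to 22.2 ± 6.44 CPM (adjusted p = 0.00152 by edgeR's quasi-likelihood test). The call of NFAT5 was lost only without the mare as a block (adjusted p = 0.166 by the same test). Among subunits of the volume-regulated anion channel, LRRC8B rose 1.66-fold and LRRC8D 1.36-fold, while LRRC8E fell by 0.37 on the log2 scale, with these calls lost in 5, 4 and 5 of 13 alternatives. SLC14A1, a urea channel, rose from 0.550 ± 0.294 to 1.36 ± 0.867 CPM (adjusted p = 0.0291), a call lost in 5 of 13.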

How the data were processed

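Messenger RNA of 8 endometrial biopsies was sequenced from poly(A) RNA. Starting material was 5 µg of total RNA with integrity numbers of 8.3 to 9.2, per the labels' protocols, and the kit described there does not mark strand. The authors deposited raw read counts per NCBI Gene ID. The submitters' processing notes list the read trimmer Trimmomatic 0.32.2 and the aligner HISAT2 2.0.3; for build, annotation and counting tool, no source used here gives a name. A deposited table of scaled signal values was compared with the counts: it equals TMM-scaled CPM of the 14037 genes above 2 CPM in 2 or more libraries (100% of values within a relative tolerance of 1e-06), and it was not used further. Of its rows, 4 are listed aquaporins.

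Symbols came from a RefSeq gene table (assembly TB-T2T), which matched 21420 of 24942 IDs (85.9%). The counts were fitted by edgeR 4.0.16 under R 4.3.3: filterByExpr (minimum count 10), which kept 15342 genes, TMM scaling and the robust quasi-likelihood F-test with the mare as a block, adjusted by Benjamini-Hochberg over all genes. "Rose", "fell" and "changed" stand for an adjusted p below 0.05. The standard error is the log2 fold change divided by the square root of F. The mare terms were tested in the same fit. Ratios within a mare used CPM plus 0.1. Pairing follows the design text, in which every mare gave a pregnant and a control sample; deviations from the group means correlated across genes within each mare (0.54, 0.38, 0.48 and 0.47).

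The members and gene lists were chosen with earlier results of these data known. Named are all members, up to 4 called genes with the smallest p per list (or the 2 with the highest mean if there was none), and the 3 genes most like each member of at least 5 CPM. ROBO4, COL1A1, COL1A2, CLDN4, CDH1, EPCAM, CSF3R, CXCR2, ITGAM, ATP1B1, SLC14A1, CFTR, AVPR2, AQP10, AQP12 and MIP were added after their values were seen. So were the uncalled red cell and neutrophil genes. Alternatives were RLE scaling, library totals, filters, the likelihood ratio test, DESeq2 1.42.0, limma-voom (limma 3.58.1), no mare block and leaving out each mare.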

Additional observations from a re-analysis of the deposited data

How the results depend on the processing

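AQP1 kept its direction in 13 of 13 alternatives and its call in 11 (log2 fold change 0.99 to 1.35), and the AQP2 row kept its direction in 13 and its call in 7 (-1.01 to -0.66). The count of members higher in pregnancy was 0 with no replicate block and 0 to 2 when a mare was left out, AQP3 being the second member that passed without mare 1. The count of members lower was 0 with no replicate block, 0 with library totals, 0 without the low-count filter and 0 to 1 when a mare was left out. Over all genes, with no replicate block 268 were higher and 121 lower, and leaving out a mare gave 653 to 1050 higher and 613 to 1007 lower. The count of members that differed between mares was 2 in limma-voom, 2 in the fit that was not robust and 0 to 2 when a mare was left out; these alternatives for the mare terms were chosen after seeing the data. The log2 fold change of AQP9 ran from -0.010 (mare 3) to 0.33 (mare 2) when a mare was left out, and that of AQP6 from -0.42 (mare 4) to 0.36 (mare 2); AQP6 was also below 0 in the likelihood ratio test (-0.0071) and in DESeq2 (-0.11). The cause of these shifts was not tested, except that leaving out a mare leaves fewer samples and fewer degrees of freedom. Of 38 other called genes named, 13 passed in all 13 alternatives and 24 lost the call with no replicate block. Members other than AQP1 and the AQP2 row had few reads, which limits what could be detected for them.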
